A study of Mus musculus with 8 samples.

Results

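The genes described here encode 9 integrin subunits: the alpha chains Itga4, Itga6, Itgal, Itgam and Itgav and the beta chains Itgb1, Itgb2, Itgb3 and Itgb7. They were taken from a fixed list of symbols, chosen with earlier results of these data known. Shares of members that pass a test are therefore descriptions. All 9 were found among the 27318 genes of the deposited count tables. Each gene was followed across the cells of a plate ranked by the fluorescence of Dach1-GFP, CD135, CD150, Sca1 or CD11b. The cells were single LSK cells, the Sca1-positive and c-Kit-positive bone marrow fraction that contains stem cells and early progenitors. They were profiled with CEL-seq2, a plate method that tags the 3' end of each polyadenylated RNA with a well barcode. There were 8 plates, 4 named LC and 4 named LCE, and all belonged to 1 group: untreated C57BL/6 Dach1-GFP mice aged 8 to 16 weeks. In these mice a biotin tag and an IRES-GFP cassette sit in the Dach1 locus, so GFP is made from the Dach1 transcript. The line came from 1 targeted embryonic stem cell clone, the marrow was enriched for c-Kit on magnetic beads before sorting, and all cells carried the reporter. There was no wild-type group, and cells of low and of high fluorescence were compared inside each plate. Replicates 1 to 4 were plates LC187, LC188, LC189 and LC190. Replicates 5 to 8 were LCE409, LCE407, LCE408 and LCE410. No label ties a plate to an animal, so a p-value reflects variation from plate to plate, some of which may be technical.

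Integrins are adhesion receptors made of 1 alpha and 1 beta chain. Itga4 pairs with Itgb1 to form VLA-4, the receptor for VCAM1 and fibronectin that holds blood progenitors in the marrow, and with Itgb7 to form the gut-homing receptor for MAdCAM1. Itga6 pairs with Itgb1 to form a laminin receptor. Itgal and Itgam share the leukocyte chain Itgb2 and form LFA-1 and Mac-1, and Mac-1 is the protein that antibodies to CD11b detect through its Itgam chain. Itgav pairs with several beta chains, among them Itgb1 and Itgb3, to form vitronectin receptors. Among the ranked proteins, CD135 is the FLT3 receptor of multipotent and lymphoid-primed progenitors, CD150 (SLAMF1) marks long-term stem cells and some early progenitors, and Sca1 is a membrane protein of the LSK gate.

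After filtering, 2718 cells were kept, 336 to 342 per plate, and their summed counts ranged from 2100839 to 5192543 per plate. The median count per cell was 11586 to 13398 on LC plates and 5672 to 7525 on LCE plates. All 8 genes listed as markers of the gate were detected on every plate. Kit was at 198 to 276 CPM (counts scaled to a common total for each plate or group of cells) and Flt3 at 123 to 257 CPM. Of 6 T and NK cell genes, Cd3e had no count and the highest, Trbc1, averaged 2.33 CPM. In 52 cells, 45 of them of the B lineage by the markers used, genes of a mature lineage made a raised share of counts. These cells held between 1.01% (Itgal) and 4.41% (Itgb2) of any integrin gene's counts. All plates carry the same 383 well names, so a shared barcode does not identify a shared cell.

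Itga4 and Itgb1, the chains of VLA-4, were counted in many cells. Itga4 had 3785 counts in 1671 cells and a plate level of 128 ± 21.6 CPM (SD, n = 8 plates), and Itgb1 had 2540 counts in 1325 cells at 85.9 ± 16.2 CPM. Itga6 had 1721 counts in 954 cells, at 57.2 ± 12.4 CPM. The leukocyte chains were sparser: Itgal had 692 counts in 477 cells (25.4 ± 4.13 CPM), Itgb2 had 499 in 389 cells (18.1 ± 2.96 CPM) and Itgam had 492 in 360 cells (18.6 ± 6.51 CPM). Itgav had 346 counts (11.9 ± 2.65 CPM) and Itgb7 had 289 (11.5 ± 4.26 CPM). Itgb3 had 117 counts in 89 cells, at 3.997 ± 1.34 CPM. It did not pass the filter on low counts in any comparison and was not tested. No cell held more than 3.42% of any member's counts. In the GENCODE annotation Itga4 overlaps Cerkl on the opposite strand (73 counts in all) and Itgav overlaps Gm13684 (50 counts), and the sources used here do not say whether counting used strand. These levels serve to show depth and are not compared between genes.

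The LC and LCE plates differed in level for some subunits. Itga6 lay between 62.1 and 72.6 CPM on the 4 LC plates and between 42.7 and 49.0 CPM on the 4 LCE plates, with no overlap. Itga4 did not overlap either, at 137 to 162 CPM on LC and 103 to 120 CPM on LCE plates. Itgb7 averaged 8.30 ± 3.33 CPM on LC plates and 14.6 ± 2.09 CPM on LCE plates (SD, n = 4 each). Because high and low cells were always compared within a plate, this offset is taken up by the plate term of the fit.

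**Figure D1:**
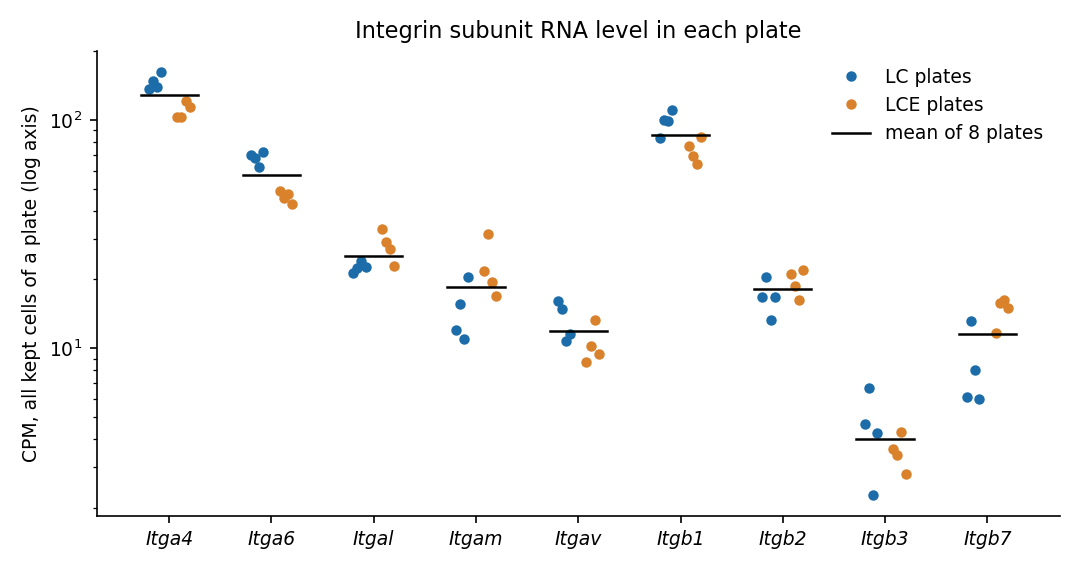
RNA level of each integrin subunit gene in CPM (log axis), summed over all kept cells of a plate. Each point is a plate (blue LC, orange LCE) and each bar the mean of 8 plates. Itga6 (62.1 to 72.6 CPM) and Itga4 (137 to 162 CPM) are higher on all 4 LC plates than on any LCE plate.

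Dach1-GFP rank moved the integrin subunits in both directions. In each plate the cells were ranked by GFP and cut into 3 equal groups, and the highest tercile was compared with the lowest, 112 to 114 cells in each. Itga6 rose with GFP, and Itgal, Itgam and Itgb7 fell. The other tested members (Itga4, Itgav, Itgb1 and Itgb2) did not pass the test. So 4 of the 8 tested members passed, 1 higher and 3 lower, where 7.87% of all 10322 tested genes passed, 4.02% higher and 3.85% lower. The median log2 difference was -0.20 over the tested members and 0.00 over all genes. Adjusted p-values of single genes here and below are from edgeR's quasi-likelihood test adjusted by Benjamini-Hochberg across the genes tested, and 0.05 was the threshold. A log2 difference is high minus low and is followed by its standard error. Dach1 itself followed the split, at 12.6 ± 7.25 CPM in the GFP-low and 51.8 ± 17.2 CPM in the GFP-high terciles (SD, n = 8), higher in 8 of 8 plates.

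Itga6, the laminin-binding alpha chain, had 19.98, 35.3 and 43.3 CPM (lowest, median and highest plate) in the GFP-low terciles and 57.6, 73.9 and 95.8 CPM in the GFP-high terciles. Every GFP-high tercile was above every GFP-low tercile. The log2 difference was 1.17 ± 0.11 (edgeR adjusted p = 4.6e-12), with the same direction in 8 of 8 plates. It was 1.11 on LC plates alone and 1.29 on LCE plates alone. By GFP quintile, from low to high, the level was 35.0 ± 11.3, 35.8 ± 10.7, 61.0 ± 18.7, 76.6 ± 26.2 and 76.9 ± 13.0 CPM (SD, n = 8). The step from quintile 2 to 3 exceeded the SDs of both, and the other neighbours lay within them.

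Itgal, the alpha chain of LFA-1, went the other way. It had 27.5, 36.2 and 45.2 CPM in the GFP-low terciles and 12.0, 17.6 and 21.4 CPM in the GFP-high terciles, again with no overlap. The log2 difference was -1.07 ± 0.16 (edgeR adjusted p = 1.1e-06), lower in GFP-high cells of 8 of 8 plates, and was -1.12 on LC and -1.0 on LCE plates. By GFP quintile, from low to high, the level was 40.6 ± 9.16, 25.8 ± 5.89, 25.4 ± 11.1, 20.6 ± 6.57 and 16.6 ± 6.33 CPM. Among neighbours, only quintiles 1 and 2 were farther apart than the SDs of both.

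Itgam and Itgb7 also fell with GFP, with overlap between terciles. Itgam had 13.0, 22.4 and 33.3 CPM in the GFP-low and 7.98, 13.1 and 24.9 CPM in the GFP-high terciles. Its log2 difference was -0.64 ± 0.20 (edgeR adjusted p = 0.0298), lower in 6 of 8 plates, and -0.70 on LC and -0.57 on LCE plates. Neither set passed alone, and the call was lost by DESeq2 and without any of the plates LC187, LC189, LC190, LCE409 and LCE410 (log2 -0.75 to -0.51 over all 8 omissions). It was -0.36 and did not pass with plates split at the median, and it was also -0.36 with ranks corrected for scatter on the LCE plates. Itgb7, the second partner of Itga4, had 5.96, 15.6 and 25.3 CPM in the GFP-low and 5.10, 6.65 and 11.2 CPM in the GFP-high terciles. Its log2 difference was -0.80 ± 0.25 (edgeR adjusted p = 0.035), lower in 7 of 8 plates. On LCE plates alone it was -1.25 and passed, and on LC plates alone it was -0.43 and did not. The call was lost by DESeq2 and whenever a single LCE plate was left out (log2 -0.81 to -0.70), and without an LC plate the gene fell under the count filter. With plates split at the median it was -0.60 and did not pass.

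Promoters are shown for these last genes because both fell with GFP and RefSeq sequence was at hand; 5 of the 9 members had an entry. Each line is the 250 bases before the annotated start, 5′ to 3′ on the gene's strand, in the RefSeq table's build GRCm38.p6. Capitals mark GAGGAA or its reverse complement TTCCTC, the PU box bound by ETS factors such as PU.1 of myeloid and lymphoid cells.
Itgam (chr7:128062390-128062639, plus strand): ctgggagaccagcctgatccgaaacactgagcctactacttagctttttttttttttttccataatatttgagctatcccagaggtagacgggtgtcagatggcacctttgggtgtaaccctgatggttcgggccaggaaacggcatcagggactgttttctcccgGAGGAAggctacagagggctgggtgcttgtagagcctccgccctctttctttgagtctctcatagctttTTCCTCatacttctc
Itgb7 (chr15:102231936-102232185, minus strand): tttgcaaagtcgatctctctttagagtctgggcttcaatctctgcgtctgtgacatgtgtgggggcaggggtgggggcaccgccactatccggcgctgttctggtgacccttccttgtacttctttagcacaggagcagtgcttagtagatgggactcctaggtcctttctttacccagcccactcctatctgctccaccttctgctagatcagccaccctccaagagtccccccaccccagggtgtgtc

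The Itgam window holds the hexamer at 84 bases before the start as written and at 15 bases before it in reverse, and the Itgb7 window holds none. Of the members not shown, the Itgav window holds it at 218 bases as written and at 7 in reverse. The Itgb1 window holds it at 9 bases as written, and that of Itga4 does not. Itgav (log2 0.46) and Itgb1 (0.20) did not pass by GFP, and Itga6 and Itgal had no promoter entry. Whether the hexamer goes with a direction by GFP was not tested. Of all 32851 promoters of the table, 23.3% hold it on either strand. The RUNX core TGTGGT, searched in the same way with its reverse complement ACCACA, is in 14% of promoters. Neither the Itgam nor the Itgb7 window holds it, and the Itga4 window holds it at 60 bases in reverse. A match is a string of letters, not a measured site.

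The remaining members gave small or imprecise differences by GFP. Itga4 was at 132 ± 19.1 CPM in the GFP-low and 129 ± 32.3 CPM in the GFP-high terciles, a log2 difference of -0.02 with an approximate 95% interval of -0.17 to 0.13. Itgb1 was at 80.3 ± 12.0 and 92.2 ± 26.2 CPM (log2 0.20, interval 0.02 to 0.38, edgeR adjusted p = 0.204). These intervals do not reach the size of the Itga6 or Itgal differences. Itgb2 (log2 -0.38, interval -0.75 to 0.00) and Itgav (0.46, interval -0.02 to 0.93) were measured less precisely. Itgb3 had 29 counts in all GFP-low and 47 in all GFP-high terciles.

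**Figure D2:**
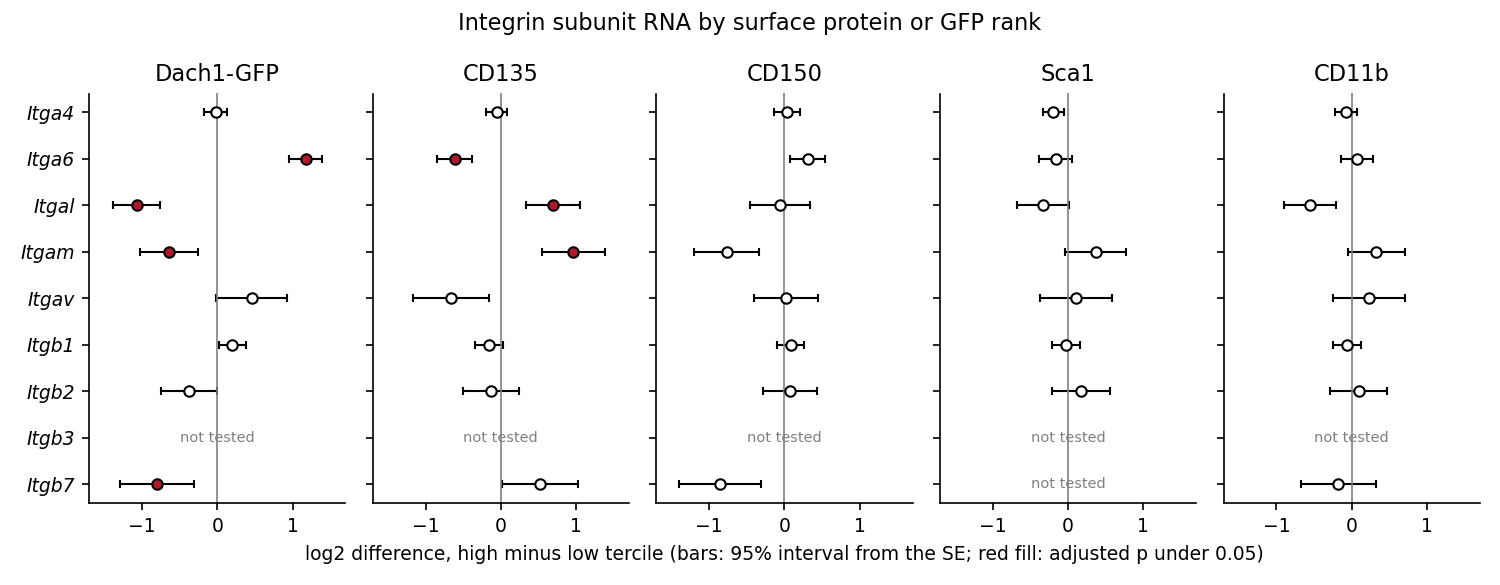
Log2 difference in RNA (high minus low tercile of a plate's cells) for each subunit, 1 panel per ranked protein. Points are edgeR estimates over 8 plates, bars are approximate 95% intervals from the standard error, and red fill marks an adjusted p under 0.05. Itga6 (1.17) and Itgal (-1.07) by Dach1-GFP lie farthest from 0 among the members called.

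Marker genes of other cell types moved with GFP as well. All 8 tested B lineage markers were lower in GFP-high cells. Marker sums here and below are over all genes of a list, tested or not. The 10 B lineage genes summed to 34.7 to 865 CPM over the GFP-low and 22.2 to 165 CPM over the GFP-high terciles. The 2 tested dendritic markers (sums of 4 genes, 246.5 to 448 against 197 to 270 CPM) and the 4 tested erythroid markers were lower too. The 2 tested megakaryocyte markers were higher (sums of 7 genes, 21.7 to 65.3 against 47.1 to 183 CPM, with Gp6 at 0). Without the 52 lineage-rich cells the differences were 1.13 for Itga6, -1.11 for Itgal, -0.65 for Itgam and -0.80 for Itgb7, and all 4 still passed. The part of the other marker changes in the integrin differences was not tested. A sum over a group of cells does not tell more cells with an RNA from more RNA per cell.

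CD135 rank moved 3 subunits, each in the direction opposite to its difference by GFP. Dach1-GFP and CD135 were themselves inversely ranked, with a Spearman correlation across cells of -0.58 to -0.40 per plate, so the comparisons reuse cells. Between the outer terciles of CD135, Itgam and Itgal rose and Itga6 fell. That is 3 of 8 tested members, 2 higher and 1 lower, against 11.1% of all 10388 tested genes (6.03% higher and 5.08% lower). Flt3, the gene for CD135, was at 77.5 ± 32.3 CPM in the low and 312 ± 72.5 CPM in the high terciles, higher in 8 of 8 plates.

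Itgam had 6.01, 10.8 and 27.1 CPM in the CD135-low and 13.9, 19.8 and 35.8 CPM in the CD135-high terciles. It was higher in the CD135-high tercile of 8 of 8 plates, although the ranges overlap between plates. The log2 difference was 0.96 ± 0.21 (edgeR adjusted p = 0.001), at 1.33 on LC plates alone, where it passed, and 0.54 on LCE plates alone, where it did not. Itgal had 9.29, 21.6 and 26.8 CPM in the low and 22.8, 33.3 and 45.8 CPM in the high terciles. Its difference was 0.70 ± 0.18 (edgeR adjusted p = 0.00729), higher in 7 of 8 plates. It was 0.73 on LC and 0.68 on LCE plates, neither passing alone. It did not pass by DESeq2 (log2 0.69), and without plate LC190 it was 0.45 and did not pass.

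Itga6 had 55.7, 66.0 and 79.7 CPM in the CD135-low and 23.9, 43.0 and 63.3 CPM in the CD135-high terciles. The high tercile was the lower in 8 of 8 plates. The log2 difference was -0.61 ± 0.12 (edgeR adjusted p = 0.00018), at -0.41 on LC and -1.0 on LCE plates. By CD135 quintile, from low to high, the level was 70.6 ± 10.3, 60.7 ± 18.3, 67.8 ± 24.9, 51.5 ± 21.3 and 36.5 ± 10.7 CPM. No step between neighbours exceeded the SDs of both.

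Itgav (log2 -0.66, interval -1.16 to -0.16, edgeR adjusted p = 0.0948) and Itgb7 (0.52, interval 0.01 to 1.03, edgeR adjusted p = 0.223) did not pass. Itgb1 (-0.16), Itgb2 (-0.13) and Itga4 (-0.06) were near 0. Itgb3 had 52 counts in the CD135-low and 20 in the CD135-high terciles, higher in the low tercile of 7 of 8 plates, and was not tested. In the same split the 6 tested monocyte and granulocyte progenitor markers were lower in CD135-high cells. All 7 genes of that list summed to 341 to 7568 CPM in the low and 268 to 3130 CPM in the high terciles. Also lower were 8 of 9 tested B lineage, the 4 tested erythroid and the 2 tested megakaryocyte markers. Both tested dendritic markers were higher. Without the lineage-rich cells the differences were 1.04 for Itgam, 0.62 for Itgal and -0.65 for Itga6, and all 3 passed. The part of the other marker changes was not tested.

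**Figure D3:**
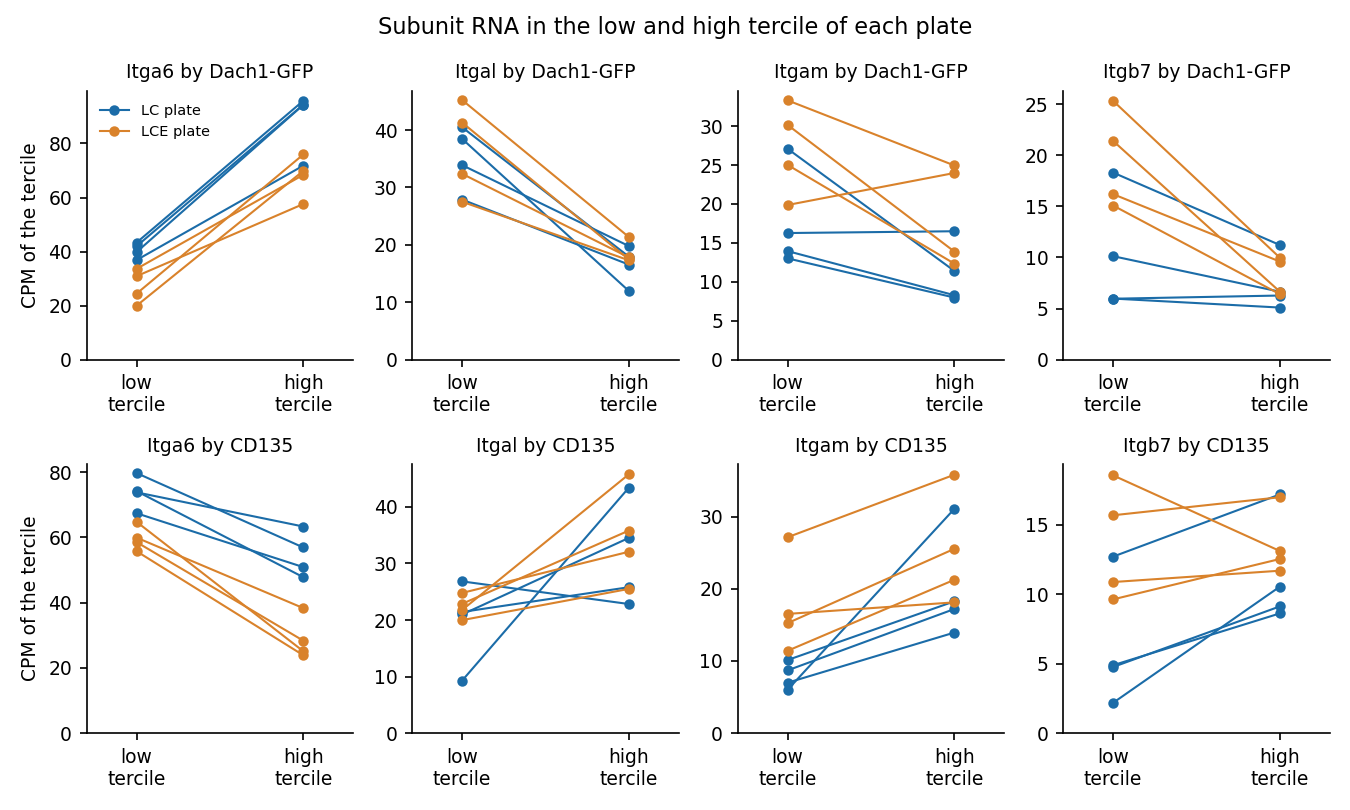
CPM of Itga6, Itgal, Itgam and Itgb7 in the low and high tercile of each plate, ranked by Dach1-GFP (top row) and by CD135 (bottom row). Each line joins the terciles of a plate (blue LC, orange LCE); Itga6 rises with GFP and falls with CD135 in all 8 plates, and Itgal falls with GFP in all 8.

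**Figure D4:**
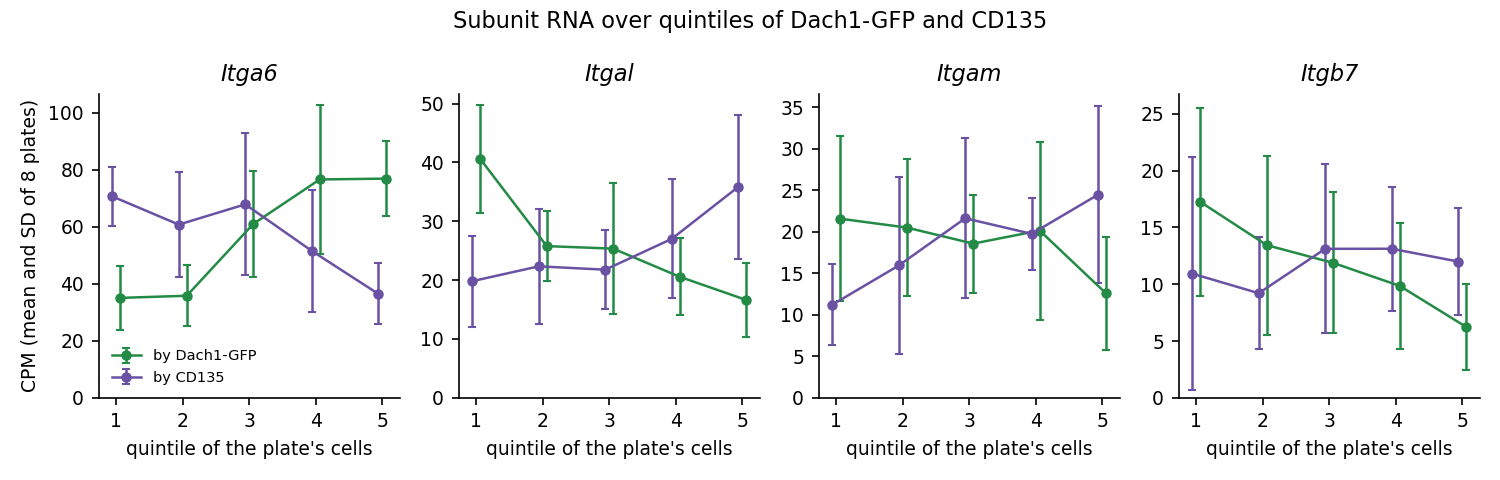
Mean CPM (bars: SD of 8 plates) of Itga6, Itgal, Itgam and Itgb7 over quintiles of a plate's cells, from the lowest (1) to the highest (5) Dach1-GFP (green) or CD135 (purple). Itga6 goes from 35.0 CPM in GFP quintile 1 to 76.9 CPM in quintile 5, and Itgal from 40.6 to 16.6 CPM.

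To fit the reporter and CD135 together, each plate was cut at both medians into a low and a high side. The 4 sums held 32 to 136 cells each. Cells on the same side of a median can still differ in level, so each term may hold part of the other's difference. Itga6 rose and Itgal fell with GFP in this fit, and for Itgal the GFP-high cells were lower in 8 of 8 plates on the CD135-high side and in 5 of 8 on the CD135-low side. Adjusted for CD135, Itga6 rose with GFP by 0.87 ± 0.11 (edgeR adjusted p = 1.7e-08), at 0.74 on LC and 1.15 on LCE plates. Itgal fell by 0.77 on the log2 scale (SE 0.19, edgeR adjusted p = 0.00551), at -1.06 on LC plates and -0.34 on LCE plates, where it did not pass alone. The Itgal call was also lost with ranks corrected for scatter on the LCE plates (-0.41) and without the plate as a block (-0.74). These were 2 of 8 members, 1 in each direction, against 6.55% of all 10321 tested genes (3.2% higher and 3.35% lower). Itgb7 (-0.48, interval -0.99 to 0.03) and Itgam (-0.13, interval -0.51 to 0.24) did not pass, although on LCE plates alone Itgb7 was -1.20 and passed. Itgb2 (-0.45, interval -0.81 to -0.09) did not pass either, and without plate LC190 it was -0.64 and passed. Itga4 (-0.05), Itgav (0.05) and Itgb1 (0.17) did not pass, and Itgb3 was not tested in any of the adjusted comparisons.

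Adjusted for GFP, no member passed the test by CD135, where 8.81% of genes did. For Itga6 the CD135 difference was 0.00 with an interval of -0.22 to 0.22, where the same median split without GFP in the fit gave -0.37. For Itgal it was 0.09 (interval -0.28 to 0.46), and 0.47 without GFP in the fit. For Itgam it was 0.48 (interval 0.10 to 0.85, edgeR adjusted p = 0.112), and 0.55 without GFP in the fit. The others were Itgav (-0.36), Itgb7 (0.34), Itgb2 (-0.27), Itga4 (-0.08) and Itgb1 (-0.06).

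Itga6 levels followed GFP in both sides of the CD135 median. On the CD135-low side it was at 37.2 ± 14.9 CPM with low and 75.2 ± 14.1 CPM with high GFP, and on the CD135-high side at 40.5 ± 14.8 and 73.6 ± 17.3 CPM (SD, n = 8). GFP-high cells were higher in 8 of 8 plates in either side, and the interaction was -0.15 (interval -0.56 to 0.26).

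Itgam showed a difference by GFP that depended on CD135. On the CD135-high side it was at 16.5 to 35.5 CPM (mean 23.8 ± 7.5) with low GFP and 10.2 to 25.7 CPM (mean 14.5 ± 5.0) with high GFP, lower with GFP in 8 of 8 plates. On the CD135-low side it was at 1.4 to 29.5 CPM (mean 12.0 ± 8.5) with low GFP and 9.1 to 30.1 CPM (mean 17.1 ± 7.7) with high GFP, higher with GFP in 7 of 8 plates. The sums of that side held few counts, 1 to 14 a plate with low GFP and 11 to 27 with high GFP. On plate LCE407 they were nearly equal, at 29.5 and 30.1 CPM. The interaction was -1.28 ± 0.37 (edgeR adjusted p = 0.0193), the 1 member of 8 that passed, where 7.16% of genes passed. It was -1.33 on LC and -1.11 on LCE plates, neither passing alone. It was lost without plate LC189 (-1.14) or LC190 (-1.28) and without the plate as a block (-1.41). With ranks corrected for scatter on the LCE plates it was -0.63 and did not pass. Without the lineage-rich cells it was -1.21 and passed.

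Itgal on the CD135-high side averaged 34.4 CPM in cells low for GFP and 15.6 CPM in cells high for GFP, lower with GFP in 8 of 8 plates. On the CD135-low side it had 24.8 and 20.5 CPM, lower in 5 of 8. Its interaction of -0.99 ± 0.36 did not pass (edgeR adjusted p = 0.0782). It passed without plate LC187 (-1.19) or LCE407 (-1.22) and without the count filter (-1.11). The interactions of Itgb7 (0.90, interval -0.05 to 1.85), Itgav (-0.27), Itga4 (0.15), Itgb1 (0.11) and Itgb2 (-0.06) did not pass.

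**Figure D5:**
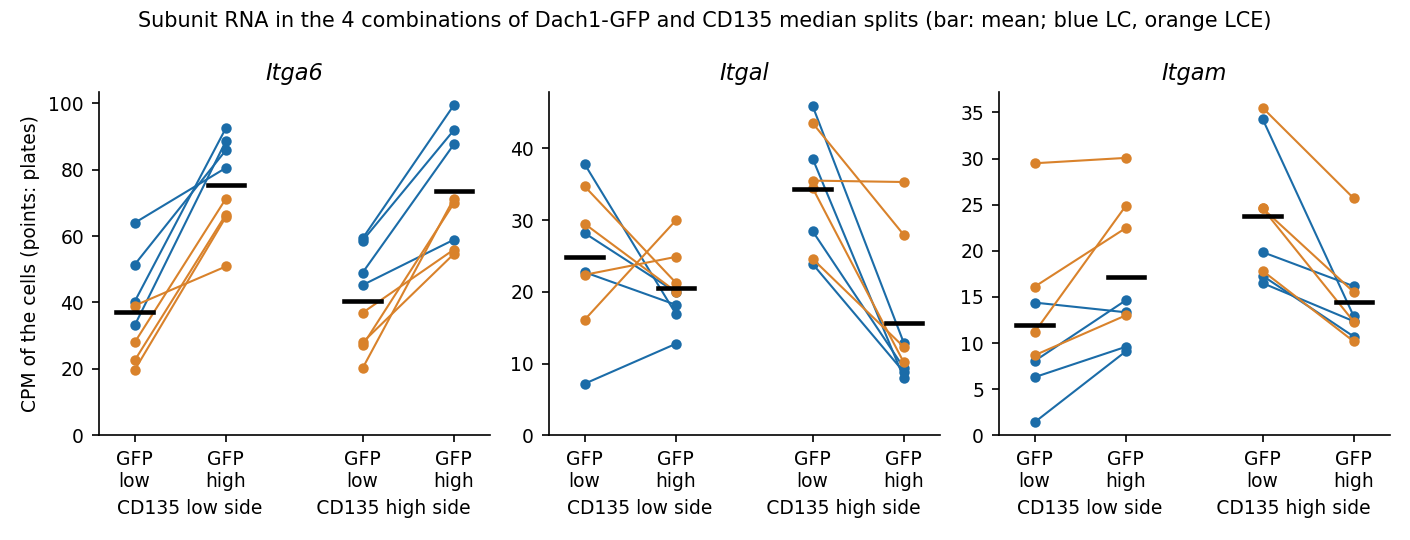
CPM of Itga6, Itgal and Itgam in the 4 combinations of GFP and CD135 sides of a plate; lines join GFP-low and GFP-high cells of a plate (blue LC, orange LCE) and bars are means of 8 plates. Itga6 is higher in GFP-high cells of both CD135 sides, and Itgam is lower with GFP in 8 of 8 plates on the CD135-high side and higher in 7 of 8 on the CD135-low side.

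Between the outer terciles of CD150 no member passed, where 2.03% of all tested genes did. The 2 with the largest differences were Itgb7, at 14.2 ± 7.55 CPM in the low and 7.90 ± 3.85 CPM in the high terciles (log2 -0.85 ± 0.28, edgeR adjusted p = 0.12), and Itgam, at 23.99 ± 12.6 and 13.7 ± 4.88 CPM (-0.77 ± 0.22, edgeR adjusted p = 0.0602). Itgb7 was lower in the CD150-high tercile of 7 of 8 plates and Itgam of 6 of 8. Itgam passed on LCE plates alone (-0.91), without plate LC189 (-0.91) or LCE410 (-0.95), without the lineage-rich cells (-0.84) and without the count filter (-0.76), and Itgb7 passed without plate LCE409 (-1.08) and with plates split at the median (-0.92). With ranks corrected for scatter on the LCE plates, Itgam was -0.37 and Itgb7 -0.15, and neither passed. CD150-high cells of the LCE plates held more counts per cell, at a median of 6486.5 to 8178 against 4909.5 to 6349. On LC plates the medians were 10742 to 12667 in the high and 11275 to 12636 in the low terciles. The part of depth in these differences was not tested. Itga6 was at 49.9 ± 15.9 CPM in the low and 62.6 ± 12.0 CPM in the high terciles (log2 0.31, interval 0.08 to 0.54, edgeR adjusted p = 0.242). Itgb1 (0.08), Itgb2 (0.07), Itgal (-0.07), Itga4 (0.03) and Itgav (0.02) were near 0, and Itgb3 had 38 counts in the low and 42 in the high terciles. Slamf1, the gene for CD150, had 7 counts in all low and 43 in all high terciles and was not tested. With cells split at the medians of CD150 and CD135, Itgb7 fell with CD150 by 0.85 on the log2 scale (SE 0.22, edgeR adjusted p = 0.0233). That is 1 of 8 members against 1.76% of genes. The value was -0.92 on LC and -0.74 on LCE plates, neither passing alone, and the call was lost without plate LC188 (-0.68), LCE407 (-0.81) or LCE410 (-0.81). Corrected for scatter on the LCE plates it was -0.17. In the CD150 terciles 4 of 9 tested B lineage markers were higher (29.5 to 239 CPM summed in the low against 41.4 to 427 CPM in the high terciles), and 4 of 5 tested erythroid markers were lower and 1 higher (38.1 to 1051 against 51.6 to 271 CPM). Of the megakaryocyte markers 1 of 2 tested was higher (30.6 to 133 against 46.6 to 197 CPM), and of the macrophage markers 2 of 3. Their part in the Itgb7 difference was not tested. Without the lineage-rich cells the adjusted Itgb7 difference was -0.83 and passed. The other adjusted differences by CD150 were Itgam (-0.35), Itgb2 (-0.13), Itgav (-0.12), Itga6 (0.08), Itgal (-0.06), Itgb1 (0.06) and Itga4 (-0.02).

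Sca1 rank did not move any member past the test, alone (11.7% of all genes passed) or adjusted for CD135 (8.3% of genes). Itga4 was at 136 ± 26.6 CPM in the low and 119 ± 23.1 CPM in the high terciles, lower in 7 of 8 plates (log2 -0.20, interval -0.34 to -0.05, edgeR adjusted p = 0.0687), and without plate LCE408 it was -0.22 and passed. Itgal was also lower in 7 of 8 plates (-0.34 ± 0.18, edgeR adjusted p = 0.235), and adjusted for CD135 it passed without plate LCE410 (-0.57). Itgb7 fell under the count filter in this comparison, with 104 counts in the low and 86 in the high terciles, and Itgb3 had 40 and 44. Itgam (0.37, interval -0.04 to 0.77), Itgb2 (0.17), Itga6 (-0.17), Itgav (0.10) and Itgb1 (-0.03) did not pass. Adjusted for CD135, Itgal was at -0.43, Itgav at 0.23, Itga4 at -0.15, Itgb2 at 0.14, Itga6 at 0.06, Itgb7 at 0.05, Itgam at 0.03 and Itgb1 at 0.00. Sca1-high cells held fewer counts per cell, at a median of 10539 to 11813 against 13535 to 15168 on LC plates. Ly6a, the gene for Sca1, rose from 30.8 ± 11.9 to 117 ± 12.7 CPM (log2 2.01 ± 0.12, edgeR adjusted p = 5.6e-22).

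CD11b rank did not move any member past the test either, alone (0.804% of all genes) or adjusted for CD135 (0.455% of genes). Its own gene is the member of most interest here. Itgam had 6.48, 16.2 and 34.5 CPM in the CD11b-low and 12.4, 19.9 and 33.3 CPM in the CD11b-high terciles, with wide overlap. The log2 difference was 0.33 ± 0.19 (interval -0.05 to 0.71, edgeR adjusted p = 0.637). As a log2 ratio of CPM + 1 per plate it averaged 0.38 ± 0.51 (SD, n = 8), above 0 in 6 of 8 plates (exact two-sided sign-flip permutation test over plates, p = 0.0703, the smallest possible being 0.0078). With plates split at the median it was 0.26, above 0 in 8 of 8 plates, with the smallest p the design allows. By comparison, the log2 difference of Flt3 between CD135 terciles was 2.10 ± 0.08 and that of Dach1 between GFP terciles 1.96 ± 0.16. The median CD11b fluorescence was 180 to 301 in the low and 874 to 1228 in the high terciles of the LC plates, and 395 to 445 and 1787 to 1952 on the LCE plates, in the sorter's linear units. CD11b is a channel of the sort records that the labels' staining list does not name. It was ranked with Sca1 (Spearman 0.25 to 0.43 per plate) more than with CD135 (0.02 to 0.22). With Dach1-GFP the correlation was 0.08 to 0.36, and no comparison by CD11b was adjusted for GFP.

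Itgal was at 28.9 ± 8.23 CPM in the CD11b-low and 21.8 ± 9.08 CPM in the CD11b-high terciles, lower in 7 of 8 plates, and did not pass (-0.56 ± 0.18, edgeR adjusted p = 0.163). It was -0.97 on LC and -0.10 on LCE plates, neither passing alone, and -0.09 with ranks corrected for scatter on the LCE plates. Without plate LCE410 it was -0.73 and passed. In the same split 7 of 7 tested B lineage markers were lower (31.3 to 631 CPM summed in the low against 22.1 to 151 CPM in the high terciles), and 4 of 6 tested monocyte and granulocyte progenitor markers were higher (358 to 4795 against 418 to 5148 CPM). Itgb2, the chain that joins Itgam in the CD11b antigen, was at 18.2 ± 5.10 and 19.7 ± 7.38 CPM (0.09, interval -0.29 to 0.47). Itgav (0.23), Itgb7 (-0.18), Itga4 (-0.08), Itga6 (0.07) and Itgb1 (-0.06) did not pass, and Itgb3 had 46 counts in the low and 35 in the high terciles. Adjusted for CD135, Itgal was at -0.37, Itgb7 at -0.22, Itgam at 0.20, Itga4 at -0.17, Itgb1 at -0.08, Itga6 at -0.06, Itgb2 at 0.05 and Itgav at 0.01.

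Some partner chains differed in their ratios in most plates, and others did not. By GFP rank, the log2 ratio of Itga6 exceeded that of Itgb1 by 1.05 ± 0.45 (SD, n = 8), in 8 of 8 plates. That of Itga4 exceeded that of its partner Itgb7 by 0.68 ± 0.35, in 8 of 8 plates. Against its other partner Itgb1, Itga4 was lower by 0.23 (mean -0.23 ± 0.21), in 7 of 8 plates. By CD135 rank, the ratio of Itgam exceeded that of Itgb2 by 1.02 ± 0.84, in 8 of 8 plates. Itgal fell short of Itgb2 by GFP (-0.65 ± 0.85) in 6 of 8 plates and by Sca1 (-0.48 ± 0.37) in 8 of 8. Other pairs were mixed, such as Itga4 and Itgb1 by CD150 (-0.06 ± 0.27, Itga4 above in 4 of 8). These values are descriptions, and no test was made of them.

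Of 19 other integrin subunit genes, 16 were in the tables and only 2 passed the count filter. Itga2b, which makes the platelet fibrinogen receptor with Itgb3, rose with GFP from 16.6 ± 7.01 to 58.7 ± 16.1 CPM (log2 1.78 ± 0.15, edgeR adjusted p = 8.9e-14). It fell with CD135 (-1.40 ± 0.17) and with Sca1 (-0.64 ± 0.15), and rose with CD150 (0.72 ± 0.15). Adjusted for CD135 it rose with GFP by 1.03 ± 0.17, and its interaction of GFP and CD135 was -1.24 ± 0.30 (edgeR adjusted p = 0.00425). Itgb5, a partner of Itgav, fell with GFP (-1.17 ± 0.27, edgeR adjusted p = 0.00179) and rose with CD135 (1.43 ± 0.27) and with Sca1 (0.95 ± 0.26). Adjusted for CD135, Itgb5 did not pass by GFP. Adjusted for GFP, it rose with CD135 by 0.73 ± 0.24 (edgeR adjusted p = 0.0445) and Itga2b fell by 0.73 (SE 0.17). Of all genes, 7.87% passed by GFP, 11.1% by CD135, 2.03% by CD150 and 11.7% by Sca1.

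Adaptors, kinases and regulators that act in integrin adhesion inside the cell, whether or not they bind integrins, formed a separate list. Of 24 tested, 1 rose and 3 fell with GFP, where 7.87% of all genes passed, with a median of -0.06 against 0.00 over all genes. Lims1, an adaptor of the integrin-linked kinase complex, fell from 99.9 ± 37.4 to 70.0 ± 24.8 CPM (-0.50 ± 0.10, edgeR adjusted p = 0.00017). Rasgrp2, an exchange factor that activates Rap1, also fell (-0.42 ± 0.11), and Tln1, the gene of talin that binds beta chain tails, rose by 0.20 ± 0.06. Adjusted for CD135, Rasgrp2 passed by GFP (-0.41 ± 0.10), and Lims1 and Tln1 did not. With CD135, 4 rose and 1 fell, where 11.1% of all genes passed; Lims1 (0.51 ± 0.09), Zyx (0.45 ± 0.09) and Parvg (0.40 ± 0.08) had the smallest adjusted p. With Sca1 3 rose and 1 fell, where 11.7% of all genes passed, led by Ptk2b (0.58 ± 0.13), a kinase of the focal adhesion kinase family. With CD150 and CD11b none passed.

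Of 10 tested membrane proteins known to associate with integrins, 2 rose and 3 fell with GFP, where 7.87% of all genes passed. The tetraspanins Cd63 (from 55.2 ± 14.001 to 125 ± 14.8 CPM, 1.16 ± 0.09) and Cd9 (from 17.4 ± 5.54 to 44.3 ± 9.64 CPM, 1.34 ± 0.16) rose in 8 of 8 plates, and the tetraspanin Cd37 fell (-0.50 ± 0.08). With CD135, Cd63 (-1.07 ± 0.09) fell and Cd53 (0.59 ± 0.07) and Cd47 (0.24 ± 0.04), the gene for an integrin-associated protein, rose; 2 of the 10 rose and 2 fell, where 11.1% of all genes passed. Cd63 was the gene of this list that rose with CD11b (0.42 ± 0.09, edgeR adjusted p = 0.0033).

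Few ligand genes were expressed enough to test, 4 or 5 of 19 depending on the comparison. F11r, which encodes the LFA-1 ligand JAM-A, rose with GFP from 6.28 ± 4.35 to 14.8 ± 6.04 CPM (1.42 ± 0.29, edgeR adjusted p = 0.00036). It was 1 of 4 tested, where 7.87% of all genes passed. Vcam1, the ligand of VLA-4, rose with CD150 (1.52 ± 0.28, edgeR adjusted p = 0.00096), from 6.26 ± 4.57 to 17.8 ± 12.9 CPM. It was 1 of 5 tested, where 2.03% of all genes passed. Adjusted for CD135, Vcam1 also rose with CD11b (1.75 ± 0.24, edgeR adjusted p = 8e-07), where 0.455% of all genes passed. Its interaction of GFP and CD135 was -1.62 ± 0.51 (edgeR adjusted p = 0.036). In the CD150 split 2 of 3 tested macrophage markers rose as well. All 8 macrophage genes summed to 21.7 to 67.1 CPM in the CD150-low and 21.8 to 133 CPM in the CD150-high terciles. Over the CD11b terciles they summed to 18.6 to 35.6 and 28.4 to 157 CPM. Their part in the Vcam1 differences was not tested. Tgfb1, whose latent form is bound by Itgav integrins, fell with Sca1 from 130 ± 33.5 to 103 ± 24.7 CPM (-0.34 ± 0.08, edgeR adjusted p = 0.0012). It was 1 of 5 tested, where 11.7% of all genes passed.

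The genes whose ratios were most like those of each member were found over 40 log2 ratios (8 plates and 5 proteins) among 7157 genes of at least 20 CPM. The 40 ratios share plates and cells, and some of them rank cells on the reporter of Dach1 itself. Picking the closest of 7157 genes also raises r. Pearson r is therefore a description. For Itga6 the most alike were the membrane mucin gene Muc13 (r = 0.91) and Dach1 (r = 0.87). For Itgam they were Shisa8 (0.72) and the transcription factor gene Runx2 (0.71), and for Itgb7 Gltp (0.69) and the actin-bundling gene Lcp1 (0.68). Itgal was closest to BC035044 and Unc93b1 (0.65 and 0.64). For the others they were: Itgav with Wdr36 (0.69) and Pitrm1 (0.65), Itgb1 with Nudt4 (0.60) and Cdc40 (0.58), Itgb2 with A130071D04Rik (0.59) and Ehbp1l1 (0.58), and Itga4 with Rab22a (0.58) and Prrc2a (0.58).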

How the data were processed

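Single LSK cells of Dach1-GFP mice were measured on 8 CEL-seq2 plates. The deposited counts are whole numbers per gene and well with no normalization. The submitters' processing notes name the build GRCh38, while every identifier in the deposited tables is a mouse Ensembl identifier; the sources used here name no aligner, strand setting or treatment of molecular tags. The deposited sort records hold fluorescence intensity per cell on a linear scale, with values below 0. In 18 records that give 2 well names the second was used.

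Of 2996 wells with counts and a record, 2718 had at least 1000 counts, 500 genes and under 20% mitochondrial counts and were kept. Spike-in RNA was left out. Single cells were sorted into wells, and no doublet caller was run. On each plate 7 to 10 wells had no sort record; the highest of them held 77 to 7169 counts, depending on the plate, and all were left out. Symbols matched 27249 of 27318 identifiers. Counts were summed per plate and outer tercile, or per plate and 4 combinations of median splits, and tested with edgeR 4.0.16 in R 4.3.3 (filterByExpr, TMM, quasi-likelihood test, plate as block, Benjamini-Hochberg). The fit was tested on simulated data. Standard errors were derived from the F statistic. Plates pair the arms by design, and arms of a plate deviated together (correlation 0.43 to 0.65). Alternatives were DESeq2 1.42.0, its size factors, no count filter, no plate block, each plate left out, each plate set alone, median splits, cells thinned to 3000 counts (40 shallower cells left out), no lineage-rich cells and, on LCE plates, ranks of the residuals after regression on forward and side scatter.

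All 9 members are named in every comparison. Of the other gene lists, at most the 3 genes with the smallest adjusted p among those that passed are named. The members and lists were chosen with earlier results of these data known.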

Additional observations from a re-analysis of the deposited data

Results flagged for a closer look

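In 39 groups of 8 plates (the log2 ratio of CPM + 1, high over low tercile, for each tested member and ranked protein), 4 held a plate far from the other 7; chance alone gives such a gap in about 1 of 20 groups. The ratio of Itgam by CD135 was 2.19 on plate LC190 and 0.13 to 0.91 on the others. That of Itgav by CD135 was -3.79 on plate LCE410, where the CD135-high tercile held 0 counts and the low tercile 9, and -1.28 to 0.14 on the others. That of Itgb1 by Sca1 was 0.93 on plate LCE408 against -0.30 to 0.11, and that of Itgal by CD11b was 1.18 on plate LCE410 against -1.24 to -0.21.

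The difference of Itgam by Dach1-GFP changed sign between the sides of the CD135 median, with an interaction of -1.28 (edgeR quasi-likelihood test, adjusted p = 0.0193; 0.0121 to 0.811 over its alternatives). It was lower with GFP in 8 of 8 plates on the CD135-high side and higher in 7 of 8 on the CD135-low side. The GFP-low sums of the CD135-low side held only 1 to 14 counts a plate.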

How the results depend on the processing

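Counts of genes past the threshold are given for the terciles of Dach1-GFP, CD135, CD150, Sca1 and CD11b, then for Dach1-GFP, CD150, Sca1 and CD11b adjusted for CD135, CD135 adjusted for Dach1-GFP, and the interaction. They were 812, 1154, 211, 1194, 82, 676, 181, 806, 48, 909 and 739 in the fit as reported. By DESeq2 they were 446, 578, 86, 486, 20, 646, 158, 644, 31, 880 and 654. Without the plate as a replicate block they were 197, 165, 8, 21, 0, 191, 12, 19, 0, 100 and 16, and the counts of 0, both for CD11b, stand beside 241 and 323 genes at an unadjusted p under 0.05 in that edgeR fit. On LC plates alone they were 437, 1084, 84, 818, 24, 356, 34, 343, 16, 618 and 454, and on LCE plates alone 501, 346, 466, 284, 91, 152, 390, 191, 50, 110 and 103. With cells thinned they were 247, 236, 76, 222, 20, 128, 60, 149, 18, 107 and 104, and with ranks corrected for scatter on LCE plates 416, 417, 126, 181, 95, 286, 96, 92, 79, 268 and 48. Without a count filter CD11b adjusted for CD135 called 90 genes, and without lineage-rich cells 28. Leaving out 1 plate gave 629 to 800, 832 to 1220, 147 to 271, 914 to 1257, 57 to 97, 476 to 659, 104 to 229, 541 to 698, 32 to 45, 590 to 928 and 414 to 710; the counts that moved by over 1.5 times did so without plate LCE409 (105) or LCE407 (104) for CD150 adjusted for CD135, without LC190 (590) for CD135 adjusted for Dach1-GFP, and without LC188 (478) or LC190 (414) for the interaction. The log2 ratio of Itgam by CD11b was 0.26 with plates split at the median (exact sign-flip permutation p = 0.0078) and 0.24 to 0.45 with 1 plate left out, and it passed without LC190 (0.45, p = 0.0469) or LCE407 (0.44, p = 0.0469).

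Of 87 tests of members 11 passed. No called value changed direction under an alternative; 137 of their 181 alternatives kept the call and 44 lost it. Itga6 by GFP kept its call in 18 of 18, Itga6 by GFP adjusted for CD135 in 17 of 17 and Itgal by GFP in 17 of 17. Among tests not passed, 17 alternatives passed. Without the replicate block 3 of the 11 calls held, those of Itga6 by GFP (1.17, and adjusted for CD135) and of Itgal by GFP (-1.06), and 8 were lost, among them Itga6 (-0.64) and Itgam (0.92) by CD135. Counts per member limit the rest: Itgb3 could not be tested, and Itgb7 fell under the filter in several alternatives. The cause of these changes was not tested.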
